A study of Rattus norvegicus with 16 samples.

Results

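The genes described here are 8 of the 17147 genes in a count table of rat supraspinatus muscle: the glucose transporters Slc2a4, Slc2a1 and Slc2a3, the hexokinases Hk1 and Hk2, the lactate transporters Slc16a1 and Slc16a3, and the muscle fructose-1,6-bisphosphatase Fbp2. They were taken by symbol. Fbp2 was selected on its own levels, since an earlier analysis of these libraries had it among the largest falls at 10 days and the largest rises from 10 to 60 days. The other 7 were named by role with earlier results known, so the differences below are descriptions and carry no p-value for these 8 genes.

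Libraries were made from polyA-selected RNA of the supraspinatus, a rotator cuff muscle of the shoulder, of Sprague Dawley rats. Unoperated muscle (0 days) was compared with muscle at 10, 30 and 60 days after a full-thickness supraspinatus tear and suprascapular neurectomy, both done bilaterally, with 4 libraries per group. The tear and the nerve lesion were always combined, so their effects cannot be told apart, and no sham group was used here. The labels used here give no genotype, age or sex, and do not say which libraries came from the same rat. Each library title carries its own number and a letter L or R, with no meaning stated. The spread between libraries may thus in part be technical.

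Muscle takes up glucose mainly through GLUT4 (Slc2a4), which insulin and contraction move from internal vesicles to the cell surface. Hexokinase then traps the sugar as glucose 6-phosphate, and glycolysis can end in lactate, which leaves or enters the fibre through the monocarboxylate transporters MCT4 (Slc16a3) and MCT1 (Slc16a1). MCT4 is known as the exporter of fast glycolytic fibres and MCT1 as the form of oxidative fibres. Fbp2 runs the opposite way to phosphofructokinase at the fructose 1,6-bisphosphate step and serves glycogen synthesis from lactate in muscle.

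Levels are TMM-scaled CPM, the number of fragments of a gene for each 1 M (mega) counted in the library, after a factor that evens out library composition. They are not divided by gene length, so levels are not compared between genes. Fold changes are log2 values with a standard error (SE) from 1 edgeR quasi-likelihood model over all 16 libraries. A gene was called changed at a Benjamini-Hochberg adjusted p under 0.05 over the 11658 genes tested. Library totals ran from 17.2 to 39.9 M fragments, and the 4 libraries at 60 days, at 17.2 to 22.4 M, were the shallowest. A level of 3 counts, taken as the smallest the depth can show, was 0.0712 to 0.175 TMM-scaled CPM. The summed level of 8 skeletal muscle fibre markers spanned 214344 to 237389 CPM in the unoperated libraries, against 66446 to 70294 CPM at 10 days. It spanned 104899 to 148564 CPM in the 30-day and 126825 to 148354 CPM in the 60-day libraries, so their sum was high throughout and lower in every injured library. Singly, 7 of the 8 were called lower and 1 higher at 10 and at 30 days, and 5 lower, 1 higher and 2 not called at 60 days. In these bulk samples, fewer fibres and less RNA per fibre cannot be told apart, and the part of the fibre markers in the results below was not tested.

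All 8 genes have a row in the table. Slc2a3, the transporter GLUT3 of neurons and other cells, was listed at 0 in all 16 libraries, and the other 7 genes passed the filter on low counts. At 10 days against 0 days, 1 of these 7 was called higher and 4 lower, beside 62.7% of all tested genes called (33.3% higher, 29.4% lower). In 5 the groups did not overlap, beside 59.0% of all tested genes. At 30 days 1 was called higher and 5 lower (64.6% of all genes called, 33.7% higher, 30.9% lower), and 6 did not overlap (60.2% of all genes). At 60 days 1 was called higher and 4 lower (59.0% of all genes called, 29.9% higher, 29.1% lower), and 5 did not overlap (50.0% of all genes). The median log2 fold change of the 7 genes was -0.77, -1.11 and -0.46 at the 3 times, against 0.06, 0.05 and 0.04 over all tested genes. Between injured groups, 4 of the 7 were called higher and 2 lower from 10 to 30 days (47.3% of all genes called, 23.0% higher, 24.3% lower), and 3 higher and 0 lower from 30 to 60 days (22.6% of all genes called, 10.3% higher, 12.4% lower). From 10 to 60 days 4 were called higher and 2 lower (61.1% of all genes called, 29.1% higher, 31.9% lower). The split of calls against 0 days depended on the scaling. With library totals only, 3 members were called higher and 3 lower at 10 days, 2 higher and 4 lower at 30 days, and 2 higher and 3 lower at 60 days. Over all genes that scaling called 70.0% higher and 10.1% lower at 10 days, 63.1% and 11.9% at 30 days, and 57.8% and 12.1% at 60 days. With upper-quartile factors 2 members were higher and 5 lower at 30 days, beside 40.8% and 24.8% of all genes. At 60 days that scaling called 2 higher and 3 lower, beside 39.1% and 22.4% of all genes. Between injured groups the split was 3 higher and 3 lower from 10 to 30 days with library totals, beside 13.1% and 34.5% of all genes. It was 5 higher and 1 lower from 10 to 60 days with upper-quartile factors, beside 33.9% and 27.4% of all genes. From 30 to 60 days library totals called 2 members higher and 0 lower, beside 6.42% and 18.0% of all genes. Nothing is read from these counts, since the members were chosen with such values known. The 3 comparisons with 0 days share the 0-day libraries.

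**Figure D1:**
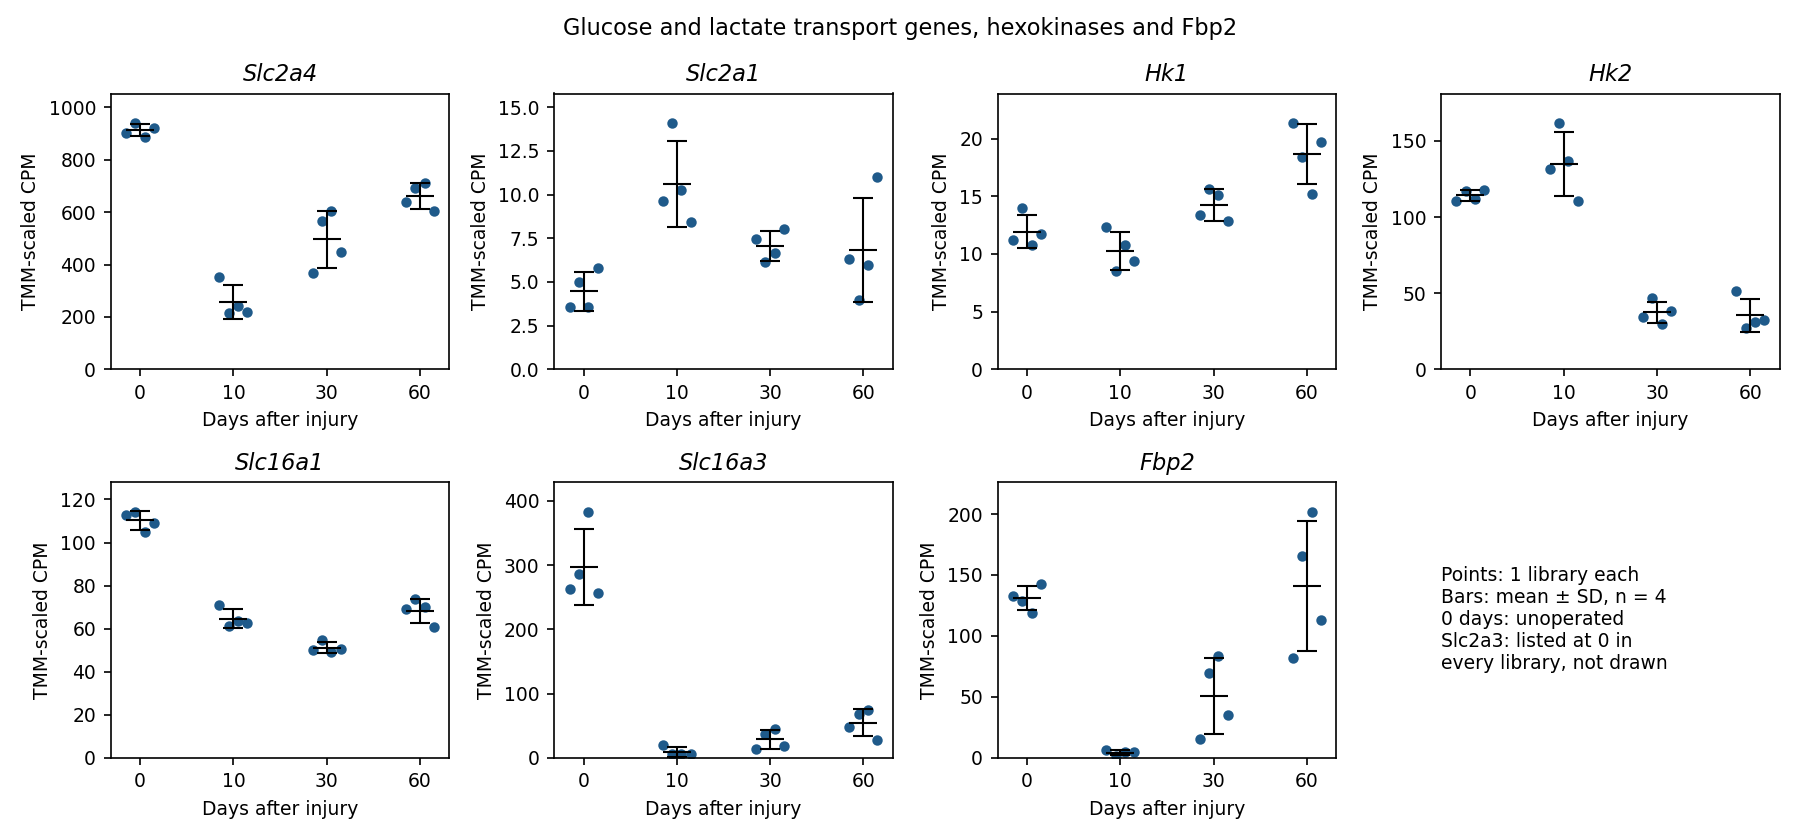
TMM-scaled CPM (y axis, linear from 0, own scale per gene) of the 7 genes with fragments against days after injury (x axis, groups evenly spaced). Points are libraries and bars the mean ± SD of 4 libraries; Slc16a3 and Fbp2 are lowest at 10 days, at means of 9.01 and 4.36 CPM, and Hk2 is at 135 CPM at 10 days and 37.4 at 30 days.

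Slc2a4, the insulin-responsive transporter, fell at 10 days and was part of the way back at 60 days. The 4 unoperated libraries had 902, 939.8, 888 and 921 CPM, and the 10-day libraries 351, 215, 240.4 and 219.8. The 30-day libraries had 367, 564, 606 and 448 CPM, and the 60-day libraries 640.1, 692, 710.4 and 603. Every injured library was below every unoperated one, and every 60-day library was above all 10-day libraries. The means were 913 ± 22.5, 257 ± 64.1, 497 ± 109 and 661 ± 49.1 CPM in time order (SD, n = 4). The log2 fold change from 0 days was -1.83 ± 0.16 at 10 days (3.56-fold lower), -0.88 ± 0.16 at 30 days and -0.46 ± 0.16 at 60 days. The rise from 10 to 60 days was 1.37 ± 0.16. The call at 60 days was lost without replicate 4 of that group (-0.40), with upper-quartile scaling (-0.32) and with library totals as the only scaling (-0.06).

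Slc2a1 encodes GLUT1, the insulin-independent transporter found in many cell types. It was highest at 10 days, when Slc2a4 was lowest. The unoperated libraries had 3.54, 4.99, 3.57 and 5.80 CPM, and the 10-day libraries 9.63, 14.1, 10.2 and 8.45. All 10-day libraries lay above all unoperated ones, with means of 10.6 ± 2.44 and 4.47 ± 1.11 CPM (SD, n = 4) and a log2 fold change of 1.24 ± 0.25 (2.36-fold higher). The 30-day libraries had 7.44, 6.13, 6.64 and 8.04 CPM, still above all unoperated libraries (log2 fold change 0.65 ± 0.26). At 60 days the values were 6.32, 3.98, 5.96 and 11.0 CPM and overlapped those of unoperated muscle (0.61 ± 0.26, not called). The later calls changed with single libraries and with settings. The 30-day call was lost without replicate 1 (0.56) or 3 (0.56) of the 0-day group. It was also lost without replicate 1 (0.62) or 4 (0.58) of the 30-day group and with the title letter as a covariate (0.60). The 60-day difference was called without replicate 4 at 0 days (0.77), replicate 2 at 10 days (0.61) or replicate 2 at 60 days (0.79). It was also called with all libraries under DESeq2 (0.60), upper-quartile factors (0.76), library totals (1.03), a mean of at least 1 CPM (0.66) and the title letter as a covariate (0.64). From 10 to 60 days Slc2a1 fell by 0.63 ± 0.25 on the log2 scale, with overlapping groups. That call was lost without replicate 2 (-0.46) or 3 (-0.64) at 10 days or replicate 1 (-0.59), 2 (-0.44) or 3 (-0.57) at 60 days. It was also lost with upper-quartile scaling (-0.53) and with a fit of those 2 groups alone (-0.62).

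Since the transporters moved in different directions, the letters before their starts are shown here for the 3 that had a RefSeq promoter (assembly GRCr8, matched by symbol, the 250 bases before the start, 5′ to 3′ on the gene's strand). The counts themselves rest on another build, rn5. Capitals mark ACGTG, the core letters of the hypoxia response element, and GGGCGG, the GC box, each searched on both strands. Slc2a1 lies at chr5:138002272-138002521 (plus strand), Slc16a1 at chr2:194812410-194812659 (plus strand) and Slc16a3 at chr10:106712078-106712327 (plus strand).
Slc2a1: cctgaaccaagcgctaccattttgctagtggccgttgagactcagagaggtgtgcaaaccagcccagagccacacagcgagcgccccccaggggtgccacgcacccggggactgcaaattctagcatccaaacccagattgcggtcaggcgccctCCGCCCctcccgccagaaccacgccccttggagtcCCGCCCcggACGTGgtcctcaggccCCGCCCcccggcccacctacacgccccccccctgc
Slc16a1: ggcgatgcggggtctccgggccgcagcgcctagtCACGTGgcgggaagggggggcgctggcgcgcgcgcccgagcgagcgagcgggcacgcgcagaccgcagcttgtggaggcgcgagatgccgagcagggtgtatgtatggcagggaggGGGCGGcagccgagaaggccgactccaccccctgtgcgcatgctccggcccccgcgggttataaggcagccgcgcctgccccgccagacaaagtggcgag
Slc16a3: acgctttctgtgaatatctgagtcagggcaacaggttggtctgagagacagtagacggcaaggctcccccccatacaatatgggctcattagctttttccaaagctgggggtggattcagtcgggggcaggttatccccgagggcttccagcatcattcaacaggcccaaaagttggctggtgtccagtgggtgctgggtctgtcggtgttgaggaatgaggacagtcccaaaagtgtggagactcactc
The Slc2a1 window held 1 ACGTG and 3 GGGCGG. The Slc16a1 window held 1 GGGCGG and 2 overlapping ACGTG matches, 1 on each strand. The same letters there match CANNTG, the E-box pattern, which had 0 matches in the other windows shown. The Slc16a3 window held neither ACGTG nor GGGCGG. Among 33469 windows of the same length, 16.6% held ACGTG, 30.5% GGGCGG and 65.5% CANNTG. GC content was 68.4% in the Slc2a1 window, 74.0% in that of Slc16a1 and 54.0% in that of Slc16a3. A match is a description of the letters, and binding was not measured. Hk1 (2 windows) and Hk2 also had an entry.

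The hexokinases differed in time course. Hk2, the isoform of insulin-sensitive muscle, stayed near its unoperated level at 10 days and was low from 30 days on. The unoperated libraries had 110.3, 117, 112 and 118 CPM, and the 10-day libraries 132, 162, 137 and 110.3, which overlapped. At 30 days the libraries had 34.2, 46.6, 30.1 and 38.6 CPM, and at 60 days 51.5, 27.0, 31.4 and 32.6. All 8 later libraries were below all 8 earlier ones. The means were 114 ± 3.65, 135 ± 21.1, 37.4 ± 7.07 and 35.6 ± 10.8 CPM in time order (SD, n = 4). The log2 fold change from 0 days was 0.24 ± 0.17 at 10 days (not called), -1.61 ± 0.17 at 30 days (3.05-fold lower) and -1.68 ± 0.18 at 60 days (3.20-fold lower). With library totals the 10-day difference was 0.90 and called. From 30 to 60 days the difference was -0.07 ± 0.17.

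Hk1, the isoform of most tissues, was highest at 60 days. The unoperated libraries had 11.2, 14.0, 10.8 and 11.7 CPM, and the 10-day libraries 12.4, 8.54, 10.8 and 9.37, which overlapped (log2 fold change -0.22 ± 0.13, not called). The 30-day libraries had 13.4, 15.7, 15.1 and 12.8 CPM (0.26 ± 0.13, not called), and the 60-day libraries 21.3, 18.4, 15.2 and 19.7. Every 60-day library was above every unoperated library (means 18.7 ± 2.60 and 11.9 ± 1.44 CPM, SD, n = 4), a log2 fold change of 0.64 ± 0.13. Hk1 also rose from 10 to 30 days (0.47 ± 0.13) and from 30 to 60 days (0.39 ± 0.13), the latter with overlapping groups. The rise from 30 to 60 days was not called with library totals (0.31), a fit of those 2 groups alone (0.39) or the replicate block (0.39). Nor was it called without replicate 1 (0.36) or 4 (0.34) at 30 days. The same held without replicate 1 (0.32), 2 (0.40) or 4 (0.38) at 60 days. Without replicate 1 at 10 days the 10-day difference was -0.32 and called lower, and without replicate 2 at 0 days the 30-day difference was 0.35 and called higher. With library totals the sign at 10 days flipped (0.44, called higher).

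Slc16a3 (MCT4) and Fbp2 had the largest falls of the 7 genes at 10 days, with a difference between them smaller than their SE. Fbp2 was selected in part for this fall. Slc16a3 was below its unoperated range in all 12 injured libraries. The unoperated libraries had 262, 286, 383 and 256 CPM, and the 10-day libraries 19.8, 5.49, 5.21 and 5.59. At 30 days the values were 13.7, 37.1, 44.6 and 19.2 CPM, and at 60 days 48.1, 67.6, 74.9 and 28.0. The 10-day and 30-day groups overlapped through the 10-day library at 19.8 CPM, and all 60-day libraries were above all 10-day ones. The means were 297 ± 59.0, 9.01 ± 7.17, 28.6 ± 14.6 and 54.7 ± 21.1 CPM in time order (SD, n = 4). The log2 fold change from 0 days was -5.03 ± 0.51 at 10 days (32.7-fold lower), -3.37 ± 0.47 at 30 days (10.4-fold lower) and -2.44 ± 0.45 at 60 days (5.44-fold lower). Replicate 1 at 10 days set much of the spread: without it the 10-day value was -5.77, the rise from 10 to 30 days was 2.40 in place of 1.66 ± 0.46, and that from 10 to 60 days was 3.33 in place of 2.59 ± 0.47.

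Slc16a1 (MCT1) moved in the same direction by a smaller amount and with little spread. The unoperated libraries had 113, 114, 105 and 109 CPM, and the 10-day libraries 71.0, 61.3, 63.7 and 62.7. At 30 days the values were 50.0, 54.7, 49.3 and 50.7 CPM, and at 60 days 69.0, 73.8, 70.0 and 60.7. No injured library reached the unoperated range, and the 30-day libraries were below those at 10 and at 60 days. The log2 fold change from 0 days was -0.77 ± 0.07 at 10 days (means 64.7 ± 4.36 and 110.3 ± 4.30 CPM, SD, n = 4), -1.11 ± 0.07 at 30 days (51.1 ± 2.43 CPM) and -0.69 ± 0.07 at 60 days (68.4 ± 5.54 CPM). With library totals the 10-day difference was -0.11 and not called.

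Both transporters reach the membrane with basigin (Bsg), their partner protein, while embigin (Emb) is a related glycoprotein known as the partner of MCT2. Both partners were higher at 10 and 30 days. Emb rose from 0.787, 1.58, 1.52 and 1.15 CPM at 0 days to 170.0, 134, 185 and 245 at 10 days. It then stood at 53.5, 19.5, 34.0 and 44.0 CPM at 30 days and at 9.04, 4.43, 4.62 and 7.51 at 60 days, still above every unoperated library. Its log2 fold change from 0 days was 7.15 ± 0.38 at 10 days (edgeR adjusted p = 8.47e-10), 4.86 ± 0.37 at 30 days (adjusted p = 2.82e-08) and 2.32 ± 0.39 at 60 days (adjusted p = 0.000125). Emb was named here because it was called with no overlap between groups, so neither is separate support. Bsg rose from 452 ± 35.9 to 1035 ± 91.5 CPM at 10 days (SD, n = 4; log2 fold change 1.19 ± 0.12, adjusted p = 1.65e-07) and was 682 ± 134 CPM at 30 days (0.59 ± 0.11, adjusted p = 0.000277). At 60 days Bsg was 386 ± 16.9 CPM, a difference of -0.23 ± 0.11 that was not called (adjusted p = 0.0952) and that had the opposite sign with library totals (0.18).

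**Figure D2:**
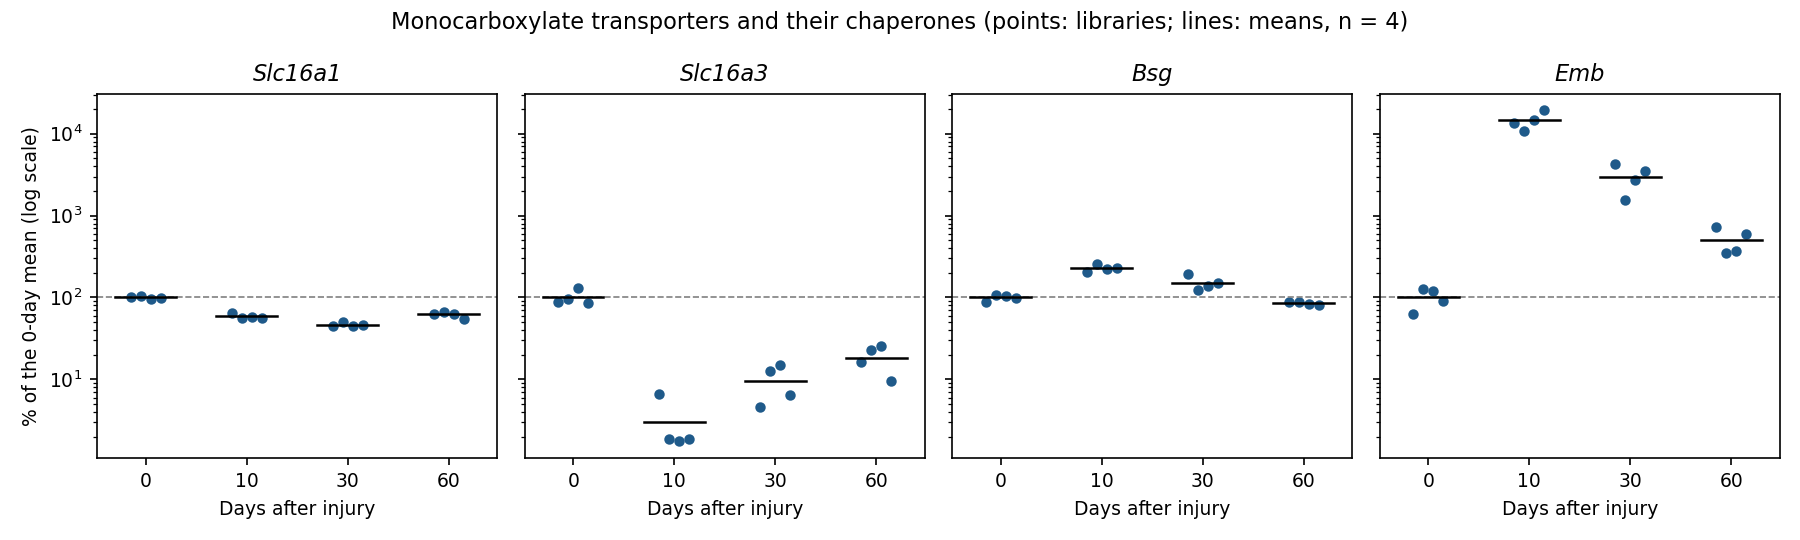
Level of Slc16a1, Slc16a3, Bsg and Emb in each library as a percent of the mean at 0 days (y axis, log scale) against days after injury (x axis); points are libraries, short lines are group means of 4 libraries and the dashed line is 100%. Slc16a3 is at 5.21 to 19.8 CPM at 10 days, when Emb is at 134 to 245 CPM.

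Around lactate itself, the list of 12 lactate and pyruvate genes in the table had 4 higher and 5 lower at 10 days, 4 higher and 6 lower at 30 days, and 1 higher and 5 lower at 60 days. Of all tested genes, 33.3%, 33.7% and 29.9% were called higher at these times, and 29.4%, 30.9% and 29.1% lower. With library totals the last 2 counts were 4 higher and 2 lower, and 5 higher and 1 lower. That scaling called 63.1% and 57.8% of all genes higher then, and 11.9% and 12.1% lower. With upper-quartile factors the 60-day count was 2 higher and 3 lower, beside 39.1% and 22.4% of all genes. Ldha, the lactate dehydrogenase subunit of glycolytic muscle, was 4.28-fold lower at 10 days (adjusted p = 3.70e-09) and fell by 1.16 ± 0.14 on the log2 scale at 30 days (adjusted p = 2.29e-06) and 0.78 ± 0.14 at 60 days (adjusted p = 0.000155), with all 12 injured libraries below the unoperated ones. Ldhb, the subunit of oxidative tissue, fell by 1.42 ± 0.18 at 10 days (adjusted p = 3.16e-06) and by 0.54 ± 0.17 at 30 days (adjusted p = 0.0115), the latter not called with library totals (-0.06). At 60 days its difference was -0.02 ± 0.17 (adjusted p = 0.927). Mpc1, a subunit of the mitochondrial pyruvate carrier, fell by 1.76 ± 0.12 at 10 days (adjusted p = 3.59e-09) and by 0.87 ± 0.12 at 30 days (adjusted p = 7.63e-06), and was lower at 60 days (-0.39 ± 0.12, adjusted p = 0.00919). Slc16a10, an aromatic amino acid transporter of the same family, was lower at 10 days (-1.48 ± 0.19, adjusted p = 3.48e-06), 30 days (-0.77 ± 0.18, adjusted p = 0.0015) and 60 days (-0.60 ± 0.18, adjusted p = 0.0106). The 60-day call was lost with library totals (-0.19) and without replicate 1 at 0 days (-0.43).

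Fbp2 had the widest swing of the 7 genes between injured groups. It was selected for its fall at 10 days and its rise to 60 days, so this rank follows from the choice. The unoperated libraries had 133, 129, 119 and 143 CPM, and the 10-day libraries 6.12, 1.68, 5.01 and 4.64. At 30 days the values were 15.3, 69.7, 83.5 and 34.9 CPM, and at 60 days 82.0, 165, 202 and 113. The 10-day libraries were below all others, the 30-day libraries stood between the 10-day and the unoperated ranges, and the 60-day libraries reached on both sides of the unoperated range. The means were 131 ± 9.73, 4.36 ± 1.90, 50.9 ± 31.3 and 141 ± 53.4 CPM in time order (SD, n = 4). The log2 fold change from 0 days was -4.90 ± 0.50 at 10 days (29.9-fold lower), -1.36 ± 0.42 at 30 days and 0.10 ± 0.41 at 60 days (not called). From 10 to 60 days it was 5.00 ± 0.50 (32.0-fold higher). At 60 days the SE was larger than the difference, and the value ran from -0.13 to 0.29 when single libraries were left out. With library totals the 30-day difference was -0.90 and not called. The rise from 30 to 60 days (1.46 ± 0.42, overlapping groups) was not called without replicate 4 at 30 days (1.32) or replicate 2 (1.38) or 3 (1.24) at 60 days, or with a fit of those 2 groups alone (1.46).

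The spread at 30 days was shared between some of the genes. Replicates 1 and 4 had the lowest and replicates 2 and 3 the highest Fbp2, Slc16a3, Slc2a4, Hk1 and Pfkm in that group. The summed muscle fibre markers did not follow that order in full: they were lowest in replicate 1 (104899 CPM) and highest in replicate 3 (148564 CPM), but replicate 4 (127574 CPM) was slightly above replicate 2 (126417 CPM). Other members went another way at 30 days. Slc2a1 was higher in replicates 1 and 4 (7.44 and 8.04 CPM) than in 2 and 3 (6.13 and 6.64). Hk2 (30.1 CPM) and Slc16a1 (49.3 CPM) were lowest in replicate 3. At 10 days replicate 1 was the highest of its group for Slc2a4, Hk1, Slc16a1, Slc16a3 and Fbp2, and replicate 2 for Slc2a1 and Hk2. The part of fibre content in these orders was not tested.

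Pfkm, the muscle phosphofructokinase that works against Fbp2, fell less than Fbp2 at 10 days and returned less. Its means were 6163 ± 264, 974 ± 119, 1472 ± 357 and 2476 ± 528 CPM in time order (SD, n = 4). Its log2 fold change from 0 days was -2.66 ± 0.18 (adjusted p = 3.20e-09), -2.07 ± 0.17 (adjusted p = 4.73e-08) and -1.32 ± 0.17 (adjusted p = 7.60e-06), with 12 of 12 injured libraries lower. Fructose 2,6-bisphosphate activates phosphofructokinase and inhibits fructose-1,6-bisphosphatase, and the enzymes that make and break it differed in direction. Pfkfb1 fell by 3.92 ± 0.31 at 10 days (adjusted p = 3.31e-08) and by 2.33 ± 0.29 at 30 days (adjusted p = 4.82e-06), and was lower at 60 days (-1.13 ± 0.28, adjusted p = 0.00258). Pfkfb3 fell by 2.73 ± 0.40 at 10 days (adjusted p = 2.05e-05), 3.51 ± 0.42 at 30 days (adjusted p = 3.15e-06) and 2.45 ± 0.40 at 60 days (adjusted p = 8.71e-05). Pfkfb2 was not called at 10 days (0.17 ± 0.10, adjusted p = 0.16) and rose by 0.62 ± 0.10 at 30 days (adjusted p = 5.03e-05) and 0.61 ± 0.10 at 60 days (adjusted p = 8.45e-05). Pfkfb4 was below its unoperated 25.2 to 35.2 CPM at 10 days (17.1 to 23.0), 30 days (13.2 to 16.2) and 60 days (17.5 to 23.3). Of these enzymes only Pfkfb2 rose. Fbp1, the liver form of the phosphatase, had too few fragments for a test.

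**Figure D3:**
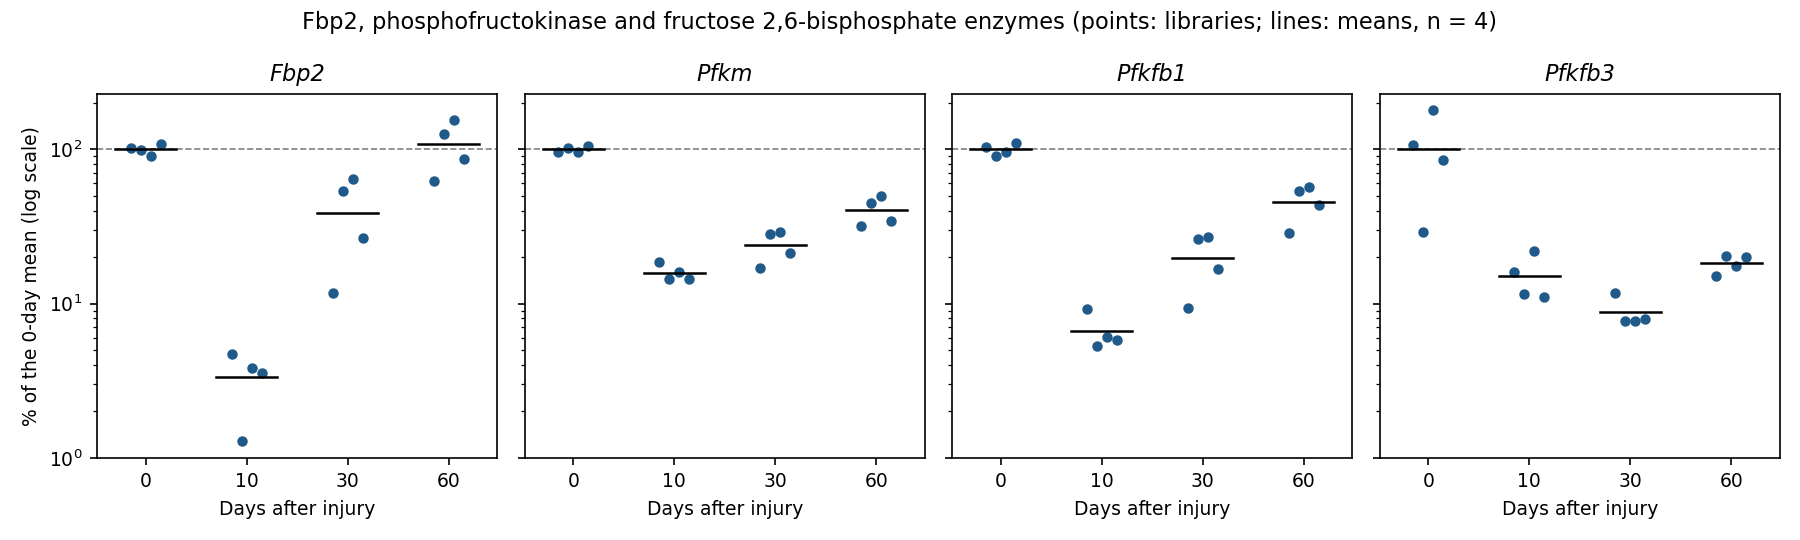
Level of Fbp2, Pfkm, Pfkfb1 and Pfkfb3 in each library as a percent of the mean at 0 days (y axis, log scale) against days after injury (x axis); points are libraries, short lines are group means of 4 libraries and the dashed line is 100%. Fbp2 is at 1.68 to 6.12 CPM at 10 days and at 82.0 to 202 CPM at 60 days, while Pfkm at 60 days has a mean of 2476 CPM against 6163 CPM at 0 days.

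Ratios of 2 genes within a library do not depend on the library's scaling, and their change from 0 days does not depend on gene length. They are given as log2 ratios minus their mean at 0 days, with 0.5 fragments added to each count. The Slc2a4 to Slc2a1 ratio was -2.51, -3.77, -3.15 and -3.00 at 10 days, -2.08, -1.17, -1.19 and -1.90 at 30 days, and -1.04, -0.27, -0.81 and -1.93 at 60 days. It lay below all unoperated libraries at 10 and 30 days and overlapped them at 60 days. The Hk2 to Hk1 ratio was above all unoperated libraries at 10 days (mean 0.45, SD 0.364) and below them at 30 days (-1.89, SD 0.278) and 60 days (-2.36, SD 0.320). The Slc16a1 to Slc16a3 ratio was above all unoperated libraries at 10 days (4.51, SD 0.841), 30 days (2.40, SD 0.783) and 60 days (1.83, SD 0.531). The Fbp2 to Pfkm ratio was -1.98, -3.48, -2.05 and -2.01 at 10 days, -0.53, 0.92, 1.13 and 0.32 at 30 days, and 0.99, 1.49, 1.64 and 1.33 at 60 days. It was thus below all unoperated libraries at 10 days, overlapped them at 30 days and was above all of them at 60 days, when Fbp2 itself overlapped them. These ratios use the genes chosen above and were not tested.

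**Figure D4:**
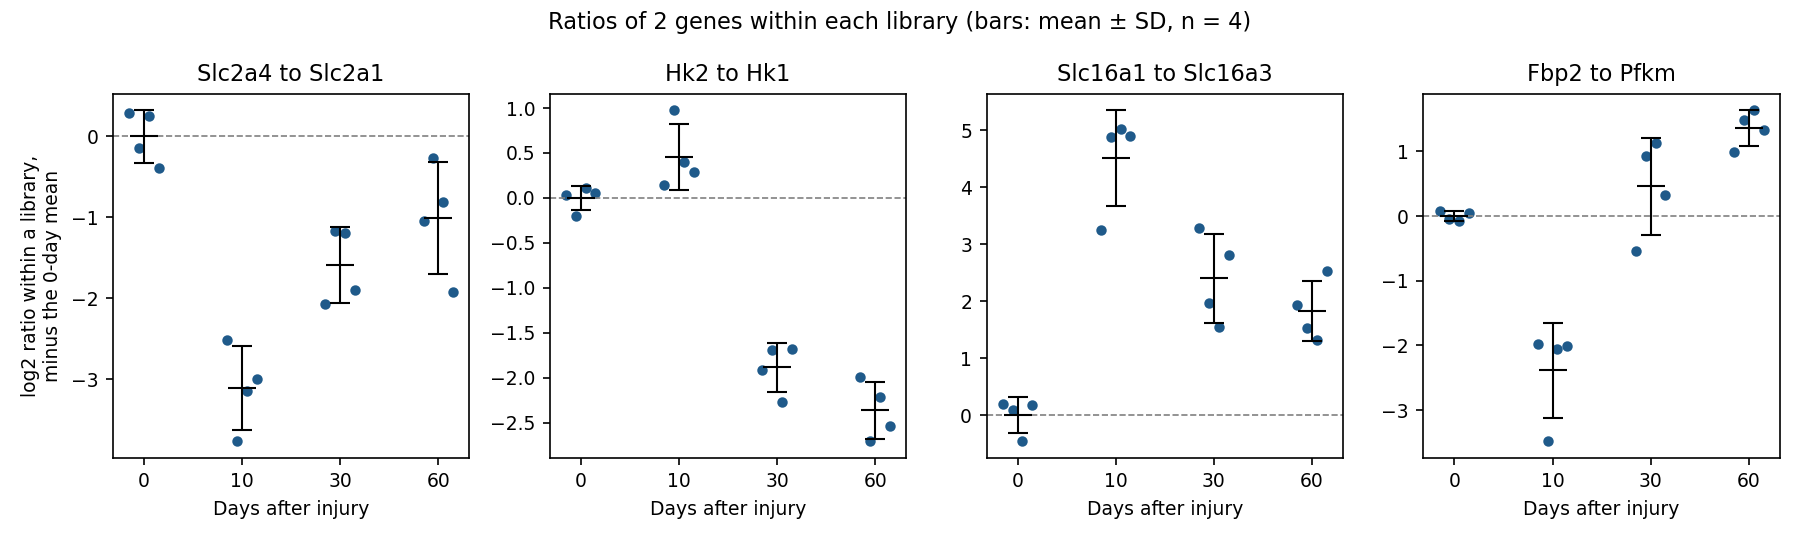
Log2 ratio of 2 genes within a library minus the mean at 0 days (y axis) against days after injury (x axis); points are libraries, bars are mean ± SD of 4 libraries and the dashed line is the 0-day mean. Hk2 to Hk1 goes from 0.45 at 10 days to -2.36 at 60 days, and Fbp2 to Pfkm from -2.38 to 1.36.

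Lists of other genes around the 8 were counted in the same model; they too were chosen with earlier results known. Of 70 such genes tested, 20 were called higher and 29 lower at 10 days (median log2 fold change -0.25), 18 higher and 37 lower at 30 days (-0.47), and 16 higher and 34 lower at 60 days (-0.30). Of all tested genes, 33.3%, 33.7% and 29.9% were called higher at these times, and 29.4%, 30.9% and 29.1% lower. The balance turned with library totals: 37 higher and 20 lower at 10 days, 27 and 23 at 30 days, and 27 and 18 at 60 days. That scaling called 70.0%, 63.1% and 57.8% of all genes higher, and 10.1%, 11.9% and 12.1% lower. The same shares stand beside the counts of each list that follows, and nothing is read from those counts. Among 10 other sugar transporters and hexokinase-type enzymes, 5 were higher and 2 lower at 10 days, and 6 higher and 2 lower at 30 and at 60 days. With library totals the counts were 8 higher and 1 lower at 10 days, and 8 higher and 0 lower at the later times. The 2 that fell were the sugar transporters Slc2a8 and Slc2a12. At 10 days they were at -0.89 ± 0.08 (adjusted p = 1.06e-07) and -0.76 ± 0.12 (adjusted p = 3.68e-05). At 30 days they were at -0.54 ± 0.08 (adjusted p = 2.86e-05) and -0.59 ± 0.12 (adjusted p = 0.000433), and at 60 days at -0.39 ± 0.08 (adjusted p = 0.000746, opposite in sign with library totals) and -0.55 ± 0.12 (adjusted p = 0.00097). With library totals Slc2a12 was not called at any of these times (-0.10, -0.09 and -0.15), nor was Slc2a8 at 30 days (-0.05). Adpgk, an ADP-dependent glucokinase, was higher at 10 days (0.48 ± 0.10, adjusted p = 0.000495), 30 days (0.53 ± 0.10, adjusted p = 0.000215) and 60 days (0.41 ± 0.10, adjusted p = 0.00232).

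Of 21 genes of insulin signalling and GLUT4 vesicle traffic, 5 were higher and 8 lower at 10 days, 4 higher and 12 lower at 30 days, and 4 higher and 10 lower at 60 days. Scaled by library totals, the counts were 13 higher and 4 lower, 7 and 6, and 6 and 6. Beside these, 33.3%, 33.7% and 29.9% of all genes were called higher, and 29.4%, 30.9% and 29.1% lower. Under library totals the shares were 70.0%, 63.1% and 57.8% higher, and 10.1%, 11.9% and 12.1% lower. The catalytic subunits of AMP-activated kinase went opposite ways at 10 days: Prkaa1 rose by 0.96 ± 0.09 (adjusted p = 9.63e-08) and Prkaa2, the main muscle form, was 2.84-fold lower (adjusted p = 0.000479). At 30 days Prkaa1 was at 0.38 ± 0.09 (adjusted p = 0.00123) and Prkaa2 at -1.96 ± 0.31 (adjusted p = 5.63e-05). Prkaa2 was also lower at 60 days (-1.70 ± 0.31, adjusted p = 0.000261). Prkaa1 was still above its unoperated 33.1 to 38.5 CPM at that time (40.4 to 50.9). The kinase Akt1 rose by 0.72 ± 0.11 at 10 days (adjusted p = 1.65e-05) and was below its unoperated range later, at -0.55 ± 0.11 at 30 days (adjusted p = 0.000237; -0.06 and not called with library totals) and -0.66 ± 0.11 at 60 days (adjusted p = 6.18e-05). Pik3r1, a regulatory subunit of phosphoinositide 3-kinase, rose by 0.53 ± 0.21 at 30 days (adjusted p = 0.0368). That call was lost without replicate 3 (0.56) or 4 (0.42) at 0 days, without replicate 1 (0.56), 3 (0.51) or 4 (0.47) at 30 days, and with the replicate block (0.52). The insulin receptor substrate Irs1 fell by 1.39 ± 0.32 at 10 days (adjusted p = 0.00146) and Irs2 by 1.69 ± 0.33 at 30 days (adjusted p = 0.000341). Irs2 was also below its unoperated 25.8 to 72.3 CPM at 10 days (13.8 to 23.9), but overlapped it at 60 days (20.7 to 49.0). Sort1, the sorting receptor sortilin of GLUT4 vesicles, was higher at 10 days (0.40 ± 0.08, adjusted p = 0.00052). It was lower at 30 days (-0.42 ± 0.08, adjusted p = 0.000316, opposite in sign with library totals) and 2.005-fold lower at 60 days (adjusted p = 8.14e-08). At 60 days Tusc5, a GLUT4 traffic protein of fat cells, was higher (1.29 ± 0.27, adjusted p = 0.000745). The vesicle fusion protein Vamp2 rose by 0.48 ± 0.07 at that time (adjusted p = 1.67e-05). Vamp2 was already above its unoperated 74.3 to 86.0 CPM at 30 days (97.8 to 105). Beside Tusc5, the summed level of the adipocyte markers was 7.42 to 41.5 CPM at 0 days and 49.6 to 119 at 60 days, with 4 of 4 markers called higher. Its part in the Tusc5 difference was not tested. Tbc1d4 was not analysed here.

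Of 13 gluconeogenic and fructose-bisphosphate genes tested, 3 were higher and 6 lower at 10 and at 30 days, and 4 higher and 7 lower at 60 days. These became 5 higher and 4 lower, 6 and 6, and 6 and 5 with library totals. Beside this list and the next, 33.3%, 33.7% and 29.9% of all genes were called higher, and 29.4%, 30.9% and 29.1% lower. Under library totals the shares were 70.0%, 63.1% and 57.8% higher, and 10.1%, 11.9% and 12.1% lower. G6pc3, the widely expressed glucose-6-phosphatase, rose by 0.86 ± 0.08 at 10 days (adjusted p = 1.54e-07) and 0.38 ± 0.08 at 30 days (adjusted p = 0.000739). At 60 days it was lower (-0.30 ± 0.08, adjusted p = 0.00581), with the opposite sign under library totals. Pck2, the mitochondrial phosphoenolpyruvate carboxykinase, rose by 0.58 ± 0.15 at 10 days (adjusted p = 0.00224) and 0.46 ± 0.15 at 30 days (adjusted p = 0.012). Pc, pyruvate carboxylase, fell by 1.33 ± 0.11 at 60 days (adjusted p = 5.52e-08). Pc was also below its unoperated 86.6 to 114 CPM at 10 days (47.0 to 65.6) and 30 days (44.0 to 52.2). Of 14 transcription factors and other regulators, 3 were higher and 8 lower at 10 days, 1 higher and 11 lower at 30 days, and 1 higher and 10 lower at 60 days. Library totals gave 6 higher and 6 lower at 10 days and 2 higher and 6 lower at 60 days. Myc, a growth-linked factor, rose by 3.13 ± 0.20 at 10 days (adjusted p = 2.39e-09), 2.64 ± 0.20 at 30 days (adjusted p = 1.64e-08) and 1.54 ± 0.20 at 60 days (adjusted p = 8.55e-06). Of the MEF2 factors, known to act on the Slc2a4 promoter, Mef2a rose by 0.98 ± 0.21 at 10 days (adjusted p = 0.000858). At 60 days it was lower with overlapping groups (-0.62 ± 0.21, adjusted p = 0.022). That call was lost with library totals (-0.22), without replicate 1 at 0 days (-0.54) and without replicate 2 (-0.53), 3 (-0.52) or 4 (-0.51) at 60 days. Mef2d was not called at 10 days (-0.33 ± 0.15, adjusted p = 0.0587, opposite in sign with library totals) and fell by 0.91 ± 0.15 at 30 days (adjusted p = 5.91e-05) and 0.93 ± 0.15 at 60 days (adjusted p = 6.70e-05). At 10 days Nr4a1, a nuclear receptor induced by muscle activity, fell by 3.70 ± 0.58 (adjusted p = 5.68e-05), as at 30 days (-2.58 ± 0.55, adjusted p = 0.000866). Mlxipl, the glucose-responsive factor ChREBP, fell by 2.60 ± 0.17 at 10 days (adjusted p = 3.95e-09). Mlxipl was also below its unoperated 61.8 to 93.4 CPM at 30 days (17.5 to 32.4) and 60 days (40.9 to 54.2). Epas1, the hypoxia factor HIF-2α, fell by 1.98 ± 0.13 at 30 days (adjusted p = 3.57e-09) and 1.18 ± 0.13 at 60 days (adjusted p = 1.17e-06). Already at 10 days its 43.2 to 59.2 CPM lay below the unoperated 157 to 192 CPM. Txnip, which curbs glucose uptake, fell by 1.04 ± 0.16 at 10 days (adjusted p = 2.87e-05). The later differences did not pass: -0.31 ± 0.16 at 30 days (adjusted p = 0.0979, opposite in sign with library totals) and 0.17 ± 0.16 at 60 days (adjusted p = 0.363).

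**Figure D5:**
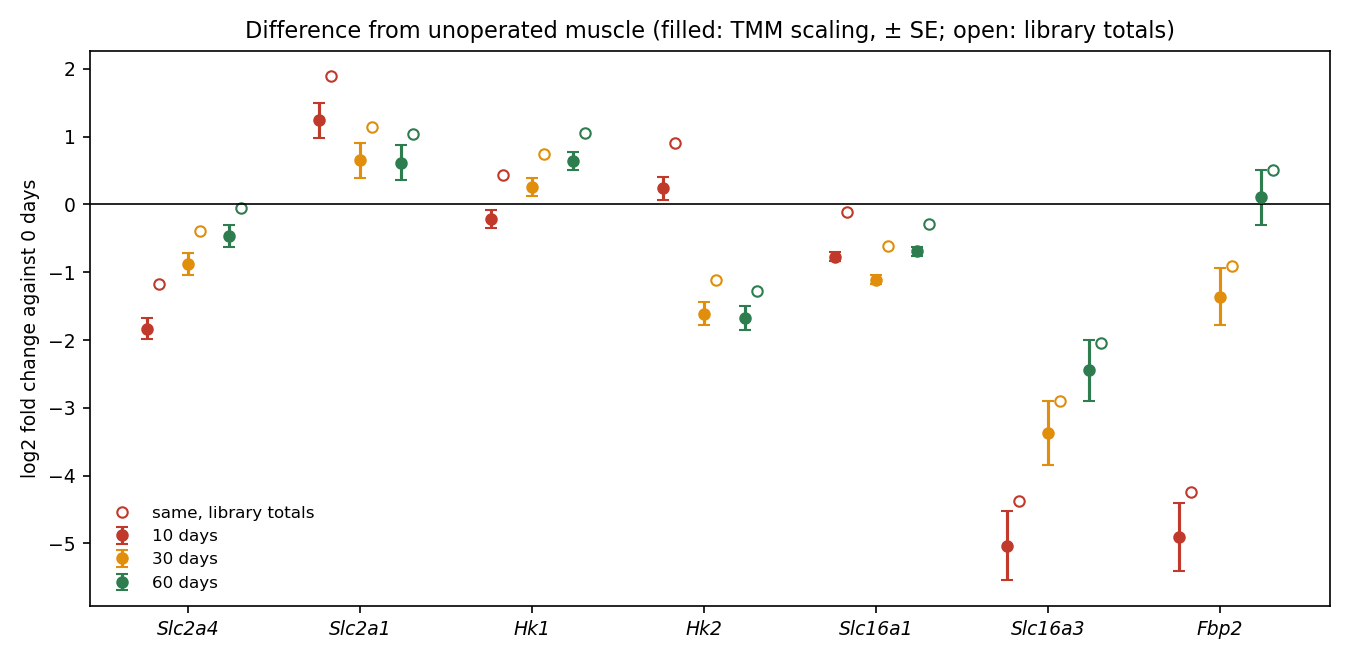
Log2 fold change from unoperated muscle (y axis) of the 7 genes (x axis) at 10, 30 and 60 days. Filled points with bars are TMM-scaled values ± SE and open points the same with library totals only; Slc16a3 and Fbp2 at 10 days are at -5.03 and -4.90, and Hk1 at 10 days changes sign between the scalings (-0.22 and 0.44).

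Markers of other cell types also differed between groups. Summed macrophage markers were 26.9 to 39.4 CPM at 0 days and 85.3 to 121 at 10 days, with 5 of 6 called higher, and fibroblast markers were 409 to 895 and 763 to 2275 CPM, with 3 of 4 called higher. Endothelial markers were 273 to 328 CPM at 0 days and 146 to 236 at 10 days, with 5 of 6 called lower. Schwann cell markers were 41.9 to 69.3 CPM at 0 days, 17.2 to 34.0 at 10 days and 81.5 to 184 at 60 days. No marker was at 0 in all libraries. These cell types can express Slc2a1, Hk1, Bsg and Emb, and their part in the differences of those genes was not tested.

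For each gene, the 3 others with the most similar level across the 16 libraries were found by Pearson's r of log2 CPM among 8223 genes. The values share libraries and group differences, so they are descriptions. For Slc16a3, the genes given are Idh3a (r = 0.988) and Ndufs1 (0.987). Slc2a4 was closest to Flad1 (0.989), Aqp4 (0.989) and Auh (0.988), and Fbp2 to Adhfe1 (0.986), Coq10a (0.985) and Akr1e2 (0.984). Hk2 was closest to Ehmt1 (0.990), Ap2a2 (0.988) and Prep (0.986), and Slc16a1 to Adrbk1 (0.975), R3hdm2 (0.975) and Dusp26 (0.974). Hk1 was closest to Rhoj (0.948), Tead3 (0.926) and Pkd1 (0.923), and Slc2a1 to Ric8a (0.909), Wwp2 (0.880) and Ppm1d (0.876).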

How the data were processed

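RNA was extracted with a miRNeasy kit and sequenced from TruSeq mRNA libraries, per the labels' protocols. The submitters' processing notes name bcl2fastq 1.8.4, FastQC, TopHat2 2.0.9, Bowtie2 2.1.0.0, Cufflinks, Cuffdiff 2.1.1 and the build rn5. The authors deposited 1 table of expected counts (raw fragments per gene, 233 genes with a fractional value), not scaled for depth or length; strandedness and filters are not given in the sources used here. How reads shared by near-identical genes were assigned is likewise not given.

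Counts were rounded, filtered with filterByExpr by group (5489 genes untested, 2637 of them at 0 throughout), scaled by TMM and fitted in edgeR 4.0.16 (R 4.3.3, limma 3.58.1) with robust quasi-likelihood, no covariate and all 16 libraries. The common biological coefficient of variation was 0.150. SE is the absolute log2 fold change divided by the square root of F. The floor of 3 counts covers counting error only. The method was run on simulated data in which few genes changed, with as many rises as falls. That run does not bear on the choice of scaling, and its outcome is not given here.

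The members, gene lists and tests were chosen with earlier results of these data known. Genes named beside the members were, in each list and comparison with 0 days, the 2 largest called rises and 2 largest called falls with a mean of at least 5 CPM and no overlap between groups, plus Fbp1, Pfkm, Bsg, Ldha, Ldhb, Txnip and Tbc1d4. For genes named by this rule, a small adjusted p and the lack of overlap follow from the rule and are no separate support. For some of these genes, values at the other times are also given, chosen after they were seen. Pfkfb4 was likewise added after its values were seen. Likeness used a mean of at least 5 CPM and a prior count of 2. For Slc16a3, 1 of the 3 genes of this rule is not reported here. Promoter letters are from RefSeq, and of the table's 17147 symbols 14500 matched GRCr8. Replicates 1 to 4 are names only. Alternatives were RLE, upper-quartile and library-total scaling, DESeq2 1.42.0, limma-voom, other filters for low counts, fits without robust estimation or of the 2 compared groups, an adjusted p under 0.01, the replicate block (column suffix), the title letter (L or R, meaning not stated), a pseudocount of 2 fragments for ratios, and leaving out each library.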

Additional observations from a re-analysis of the deposited data

Results flagged for a closer look

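In 4 groups of libraries, 1 library stood far from the other 3: its gap to the nearest was 0.839 to 0.973 of the group's range, past Dixon's 95% critical value. Slc16a3 at 10 days had its highest library at 19.8 CPM, with the others at 5.21 to 5.59. The log2 Slc16a1 to Slc16a3 ratio, relative to the 0-day mean, had its lowest library at -0.46 at 0 days and at 3.25 at 10 days. The Fbp2 to Pfkm ratio at 10 days had its lowest library at -3.48. At 10 days the Slc16a3 flag and the Slc16a1 to Slc16a3 flag come from the same library, replicate 1. In all, 44 groups were looked at, so some flags can arise by chance, which was not tested.

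Within-library ratios also moved in opposite directions at different times. Hk2 to Hk1 was 0.45 at 10 days, above all unoperated libraries, and -1.89 at 30 days and -2.36 at 60 days, below them. Fbp2 to Pfkm was -2.38 at 10 days and 1.36 at 60 days. The differences between times were not tested.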

How the results depend on the processing

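The number of the 7 tested members called from 30 to 60 days was 3, but 1 with a fit of the 2 compared groups, 1 with an adjusted p under 0.01, and 1 to 4 when single libraries were left out (1 without 30-day replicate 4 or 60-day replicate 2). The number of other pathway genes called from 30 to 60 days was 26, and 17 with an adjusted p under 0.01. The other 10 counts of called members or pathway genes stayed within 1.5 times their value under all alternatives run, though 64 calls of single members changed, for 6 genes in 15 of their comparisons (28 of the 64 when 1 library was left out), so that a like total can hold different calls. Besides those given with each gene, Hk1 was called higher at 30 days with upper-quartile factors (0.38) and library totals (0.75), and its rise from 10 to 30 days was lost with library totals (0.31). Slc2a1 from 10 to 30 days was called with DESeq2 (-0.58) and limma-voom (-0.58), and Slc2a4 from 30 to 60 days with DESeq2 (0.44). Slc16a1 from 10 to 60 days was called higher with upper-quartile factors (0.17) and lower with library totals (-0.17). With the replicate block, 5, 6 and 5 members were called at 10, 30 and 60 days against 0 days, as without it, and 2 in place of 3 from 30 to 60 days. The deviations of libraries of the same suffix had a mean correlation of 0.0013 over 24 pairs (-0.24 to 0.22). Single pairs went both ways, so these values cannot decide whether the suffix is a pairing, and none was assumed.

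The 60-day difference of Ldhb, near 0, changed sign to 0.12 with upper-quartile scaling, 0.39 with library totals, 0.0253 with a mean of at least 1 CPM, 0.0017 with a fit of the 2 groups and 0.058 with the title letter, and ranged from -0.10 to 0.056 over left-out libraries (0.056 and 0.027 without 0-day replicates 2 and 4, 0.019 and 0.043 without 60-day replicates 1 and 3). With library totals, Txnip at 30 days (0.18), Bsg at 60 days (0.18), Slc2a8 at 60 days (0.0143), G6pc3 at 60 days (0.11), Sort1 at 30 days (0.073), Mef2d at 10 days (0.32) and Mef2a at 30 days (0.40) also changed sign. Mef2a at 30 days, near 0 (-0.10), was 0.023 with upper-quartile factors and -0.19 to 0.0043 over left-out libraries. Library-total scaling moved the median of all genes by 0.66, 0.49 and 0.41 at 10, 30 and 60 days against 0 days. Upper-quartile scaling moved it by 0.12 and 0.14 at 30 and 60 days. Library totals leave out the TMM factors, which were 0.750 to 0.775 at 0 days and 0.969 to 1.24 in the injured libraries. Why these factors differed was not tested. The lowest counts of a tested member in a library were 51 fragments for Fbp2 (at 10 days) and 63 for Slc2a1, and the 60-day libraries were the shallowest.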
